A study of Homo sapiens with 48 samples.

Results

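The NF-κB subunits and the proteins that hold them in check were followed here through RAS-induced senescence and the loss of 2 splicing factors. The 10 genes were chosen by name, namely NFKB1, NFKB2, RELA, RELB, NFKBIA, NFKBIB, NFKBIE, NFKBIZ, TNFAIP3 and IKBKG, out of 19509 genes with counts, of which 9991 reached the 10000 counts over all libraries needed for a test. All 10 passed that limit, with totals from 32281 counts for NFKBIB to 240327 for RELA. IMR90 cells are human lung fibroblasts, and every library came from IMR90 ER:RAS cells, a line that carries HRAS G12V fused to the hormone-binding part of the oestrogen receptor, so that 4-hydroxytamoxifen (4OHT) switches RAS on. Cells were given 4OHT, or DMSO as the uninduced control, for 6 days, transfected with siRNA and kept 2 more days in 0.5% serum. The siRNAs were non-targeting (siNT1 or siNT2), against the U2 snRNP component SF3B1 (siSF3B1-13 or siSF3B1-16) or against the U2AF-related splicing factor RBM39 (siRBM39-06 or siRBM39-08), which makes 6 groups of 8 libraries, with 2 siRNAs per target and 4 replicates per siRNA. All groups carry the fusion, and no group without it entered these comparisons. Polyadenylated RNA was sequenced, with 31467221 to 52734636 counts per library, of which 10771 to 32035 fell on the 10 genes. The labels do not say whether replicates were separate cultures, while the methods describe replicates in culture as independent experiments and give fewer per condition than the labels. If they were not separate, the p-values measure a spread between libraries that may be technical. For the 4 4OHT libraries whose titles name siNT2, another label names siNT1, which leaves the groups as they are.

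NF-κB is a family of dimeric transcription factors made from Rel proteins. In resting cells IκB proteins hold the dimers in the cytoplasm. Signals from cytokine receptors reach the IκB kinase complex, whose scaffold is NEMO (IKBKG), and the complex marks IκB for destruction, so that the dimers enter the nucleus and switch on cytokine and survival genes together with their own inhibitors. In senescent fibroblasts the pathway is known for driving the secretory phenotype.

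Before the comparisons, the libraries were checked against their labels. SF3B1 stood at 9.14% of its siNT level in DMSO and 8.31% in 4OHT with siSF3B1, and RBM39 at 16.1% and 13.5% with siRBM39. From DMSO siNT to 4OHT siNT, mean CDKN1A went from 950 to 1693 CPM, CDKN2A from 38.2 to 61.4 and LMNB1 from 18.9 to 3.42. HRAS went from a mean of 516 to 880 CPM. In DMSO and 4OHT its means were 728 and 1657 with siSF3B1, and 608 and 1105 with siRBM39. What the unequal HRAS levels mean for the knockdown comparisons was not tested. All 8 fibroblast markers were measured, and their summed level was 51970 to 59092 CPM (counts scaled to a common, TMM-adjusted library size) in DMSO siNT against 14364 to 15169 in 4OHT siNT, whose part in the results below was not tested. VIM stayed near its level, with means of 6440 and 6421 CPM, and the other markers were lower in 4OHT siNT. Mean COL1A1 went from 26178 to 6153 CPM and COL1A2 from 13975 to 1331. Markers of other cell types were low, with sums of at most 3.77 CPM for epithelial and 7.98 for endothelial genes, and of 35.96 to 47.5 CPM in DMSO siNT and 71.3 to 83.8 in 4OHT siNT for leukocyte genes, nearly all from CD68. Replicate 4 of siRBM39-08 in 4OHT lay outside the range of the other 7 libraries of its group for 10 of 10 members and for 85.0% of all tested genes, a share that was 7.36% to 40.9% for the other 7, so siRBM39 results in 4OHT are given with and without it. In RNA from whole cultures, fewer cells of one kind and less RNA per cell cannot be told apart.

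Promoter sequence is shown for the 3 members that rose most when RAS was switched on, because NF-κB is known to act on their promoters. Each line gives the 250 bases before a RefSeq start site in GRCh38.p14, 5′ to 3′ on the strand of the gene, with capitals for matches to the 10-base NF-κB consensus on either strand. The windows lie at chr3:101827740-101827989 (forward strand, the first of the NFKBIZ start sites), chr6:137867009-137867258 (forward) and chr14:35404750-35404999 (reverse).
NFKBIZ: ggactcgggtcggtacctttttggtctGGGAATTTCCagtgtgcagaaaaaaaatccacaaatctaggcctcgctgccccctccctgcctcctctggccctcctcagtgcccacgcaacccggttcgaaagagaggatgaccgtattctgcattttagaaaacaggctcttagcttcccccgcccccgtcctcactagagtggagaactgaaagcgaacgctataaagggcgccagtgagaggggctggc
TNFAIP3: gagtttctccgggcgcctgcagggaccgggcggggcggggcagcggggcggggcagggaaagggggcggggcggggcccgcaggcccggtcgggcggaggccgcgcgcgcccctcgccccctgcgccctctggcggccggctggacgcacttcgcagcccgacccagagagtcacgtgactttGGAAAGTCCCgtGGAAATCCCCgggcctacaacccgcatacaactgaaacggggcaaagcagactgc
NFKBIA: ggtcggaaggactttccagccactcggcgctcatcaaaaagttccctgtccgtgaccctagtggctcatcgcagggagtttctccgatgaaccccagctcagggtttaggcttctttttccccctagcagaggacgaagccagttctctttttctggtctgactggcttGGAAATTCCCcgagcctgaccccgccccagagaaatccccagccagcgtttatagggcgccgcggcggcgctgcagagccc
Of the 17 windows listed for 8 members, 8 held at least 1 match, against 3498 of 35116 windows of all genes (9.96%). TNFAIP3 held 2 matches 2 bases apart, starting at positions -67 and -55 relative to the start site. The NFKBIA match began at -81, and the one shown for NFKBIZ at -223. No match was found in the windows of RELA or IKBKG, and RELB and NFKBIE had no entry. A match is a likeness of letters, and binding was not measured.

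Exon sequence is shown for the exons whose inclusion changed most. The exon stands in capitals with 20 intron bases on each side, in GRCh37. IKBKG exon 5 of 11 lies at chrX:153788622-153788774 (forward strand), and RELA exons 7 and 8 of 11 at chr11:65426189-65426293 and chr11:65425758-65425970 (reverse strand), all within coding sequence.
IKBKG exon 5: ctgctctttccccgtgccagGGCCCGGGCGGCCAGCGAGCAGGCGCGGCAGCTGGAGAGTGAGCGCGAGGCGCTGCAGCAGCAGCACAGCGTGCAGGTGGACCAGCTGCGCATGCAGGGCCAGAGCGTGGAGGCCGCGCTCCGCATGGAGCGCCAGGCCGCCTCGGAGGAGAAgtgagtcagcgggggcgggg
RELA exon 7: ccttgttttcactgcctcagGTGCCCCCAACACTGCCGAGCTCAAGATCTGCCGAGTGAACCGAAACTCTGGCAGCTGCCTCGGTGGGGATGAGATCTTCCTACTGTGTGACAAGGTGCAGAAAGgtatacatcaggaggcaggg
RELA exon 8: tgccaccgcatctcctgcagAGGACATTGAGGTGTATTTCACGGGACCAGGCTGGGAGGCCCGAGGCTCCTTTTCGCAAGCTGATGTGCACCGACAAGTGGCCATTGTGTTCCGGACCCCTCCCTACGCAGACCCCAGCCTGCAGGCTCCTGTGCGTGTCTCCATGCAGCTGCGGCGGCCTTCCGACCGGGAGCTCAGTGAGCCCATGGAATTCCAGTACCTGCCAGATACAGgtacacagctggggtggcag
Their lengths are 153, 105 and 213 bases, each divisible by 3, so skipping any of these annotated exons leaves the reading frame in place. The deposited splicing table scores shorter forms of the RELA exons, of 95 and 102 bases, the first of which is not divisible by 3. RELA intron 4 (chr11:65427687-65429157, 1471 bases) and NFKBIB intron 5 (chr19:39398300-39399370, 1071 bases, forward strand) had the highest retained shares described below. Their splice sites are shown with 10 exon bases in capitals.
RELA intron 4 5′ splice site: GCATCCACAGgtgaggtccctgcaggctag
RELA intron 4 3′ splice site: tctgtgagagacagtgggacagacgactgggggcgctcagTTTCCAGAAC
NFKBIB intron 5 5′ splice site: AGACGAGGGCgtgagtcaggaggagagaca
NFKBIB intron 5 3′ splice site: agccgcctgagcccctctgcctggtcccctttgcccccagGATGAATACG

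Levels of different genes were compared per length, as the deposited cRPKM (a per-length, per-depth read density, corrected for mappability). In DMSO siNT cells RELA, the main transactivating subunit, was highest, with a median of 36.3 cRPKM, followed by IKBKG at 27.02 and the inhibitor NFKBIA at 18.04. TNFAIP3 was lowest at 2.13, and its range overlapped that of NFKBIZ (median 3.18). Between these ends, the ranges of NFKB2 (9.74) and NFKBIB (9.65) overlapped, as did those of NFKB2 and NFKB1 (8.81), and those of NFKBIE (5.62) and RELB (4.78). With RAS on, NFKBIA was first at 59.1 cRPKM and RELA second at 46.8, without overlap. NFKB2 followed at 30.98, then NFKBIZ at 23.8 and IKBKG at 21.6, whose ranges overlapped each other. The last 5, from NFKBIB at 15.6 through TNFAIP3 at 15.1, RELB at 13.4 and NFKB1 at 12.9 to NFKBIE at 12.1, each overlapped the next.

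The first comparison asked how RAS changed the members in cells given siNT, with 8 libraries against 8. Of the 10 members, 9 rose and 1 fell, where 39% of all tested genes rose and 39.1% fell at an adjusted p under 0.05 (edgeR quasi-likelihood test, Benjamini-Hochberg). The median log2 change of the members was 1.31, against -0.00 over all tested genes. RELB and TNFAIP3 reached the count limit only with their 4OHT libraries, while none of the 10 members was left out by it. For none of the 10 did the DMSO and 4OHT libraries overlap, but the share of all tested genes without overlap was not worked out. The largest changes were among the feedback inhibitors and the smallest rises among the subunits RELA and NFKB1.

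**Figure D1:**
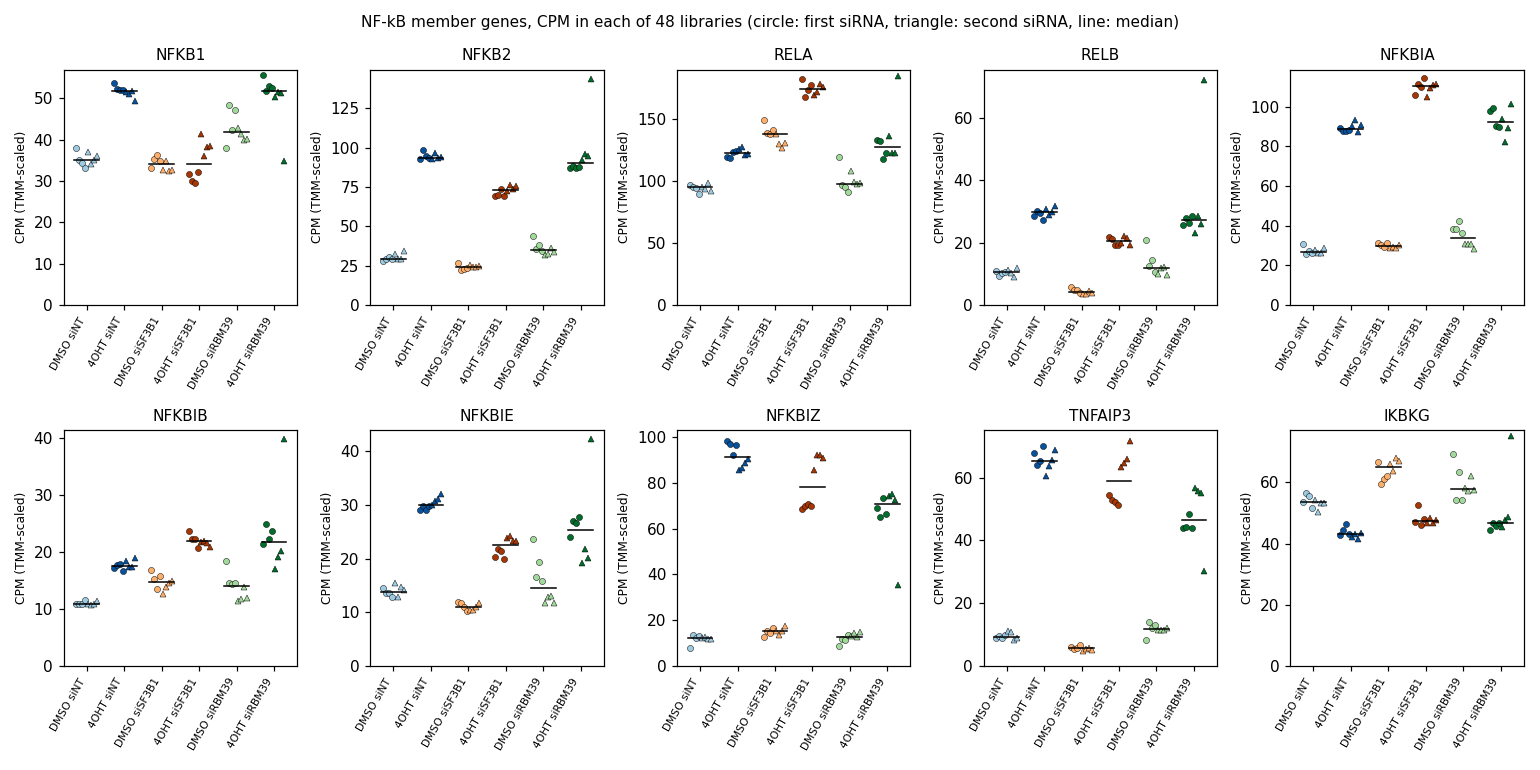
Level of each member in CPM, counts scaled to a common library size (vertical axis from 0, own scale in each panel) in each of 48 libraries, in the 6 groups along the horizontal axis. Circles are libraries of the first siRNA of each target, triangles those of the second, and lines the median of 8. In siNT cells the 4OHT libraries lie above the DMSO libraries for 9 members and below for IKBKG, and 1 triangle in 4OHT siRBM39 lies outside the range of the other 7 in all 10 panels.

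Among the subunits, NFKB2 (chr10:104153867-104162281, GRCh37), the precursor p100 of p52, ranged from 28.2 to 33.96 CPM with a median of 29.3 in DMSO siNT and from 92.6 to 98.4 with a median of 93.6 in 4OHT siNT, a log2 change of 1.64 ± 0.07 (SE). RELB (chr19:45504719-45541450), the partner of p52 in the non-canonical pathway, went from 8.96 to 11.7 CPM (median 10.5) to 27.4 to 31.8 (median 29.7), a rise of 1.51 ± 0.15. These subunits of the non-canonical arm rose by 3.12-fold and 2.85-fold. NFKB1 (chr4:103422487-103538459), the precursor p105 of p50, went from 33.1 to 38.02 CPM (median 35.03) to 49.3 to 53.7 (median 51.8), a rise of 0.55 ± 0.06. RELA (chr11:65421070-65430561) had 90.0 to 98.8 CPM (median 95.1) in DMSO and 119 to 127 (median 123) in 4OHT, a rise of 0.38 ± 0.06. The canonical subunits thus rose by 1.46-fold and 1.30-fold, with adjusted p-values of 1.5e-10 and 4.5e-08.

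Of the IκB proteins, NFKBIZ (chr3:101546835-101579866), the nuclear IκBζ that acts with p50 on a subset of targets, rose most. It lay between 7.58 and 13.6 CPM (median 12.2) in DMSO and between 85.6 and 98.5 (median 91.5) in 4OHT, a log2 change of 2.96 ± 0.12, or 7.78-fold. The classical IκBα, NFKBIA (chr14:35870285-35873955), had 25.7 to 30.5 CPM (median 26.8) and 87.0 to 93.2 (median 88.9), a rise of 1.71 ± 0.05 (adjusted p = 3.0e-31). It is itself an NF-κB target and closes the best known feedback loop. NFKBIE (chr6:44225903-44233525), or IκBε, rose from a median of 13.8 to 29.9 CPM, by 1.12 ± 0.11. NFKBIB (chr19:39390340-39399533), or IκBβ, which is known to respond less to NF-κB, rose from a median of 10.9 to 17.5 CPM, by 0.69 ± 0.10.

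TNFAIP3 (chr6:138188351-138204451) encodes A20, a ubiquitin-editing enzyme that shuts the pathway down upstream of the kinase. Its level was 8.16 to 11.02 CPM (median 9.17) in DMSO and 60.7 to 70.2 (median 65.4) in 4OHT, a rise of 2.80 ± 0.10 (6.95-fold, adjusted p = 1.4e-29). IKBKG (chrX:153769414-153793261) was the member that fell, from 50.2 to 56.6 CPM (median 53.5) to 41.4 to 46.4 (median 43.1), by 0.31 ± 0.06 on the log2 scale (adjusted p = 3.5e-05). Its values are uncertain, since 9 of its 11 exons, with 1644 of 1972 bases, have an identical copy in the nearby pseudogene IKBKGP1.

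**Figure D2:**
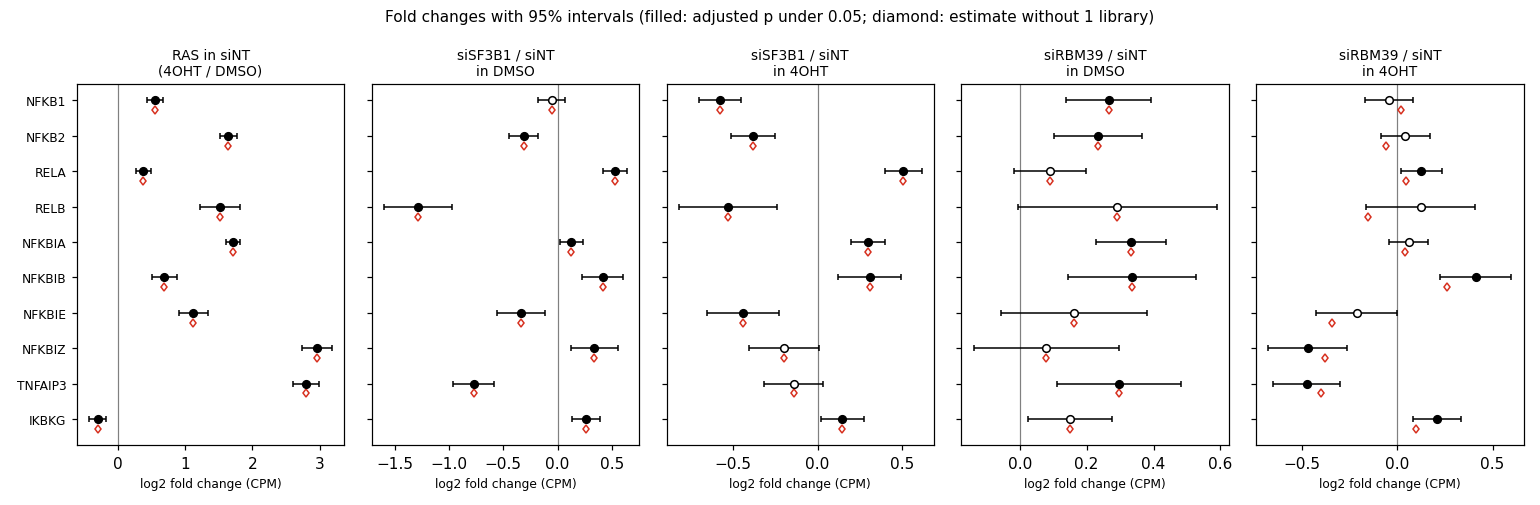
Log2 fold change of CPM for each member (rows) in the 5 comparisons (panels, each with its own horizontal scale), with approximate 95% intervals from an SE derived from the edgeR test. Filled circles have an adjusted p under 0.05, and red diamonds give the estimate without replicate 4 of siRBM39-08 in 4OHT. With RAS the estimates run from -0.31 for IKBKG to 2.96 for NFKBIZ, and the diamonds leave the circles in the panel of siRBM39 in 4OHT.

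The rest of the pathway was read from lists of its ligands, receptors, signalling proteins, other regulators and target genes. Of 18 targets 17 could be tested, of which 16 rose with RAS and VCAM1, an adhesion molecule, fell by 2.80 ± 0.13. The median log2 change of the tested targets was 6.48. The cytokine CSF2 went from a mean of 0.00969 to 58.9 CPM, and the chemokine CCL20 from no counts to 21.3. Like CXCL1, CXCL2, CXCL3, CXCL8, IL6, BIRC3, PTGS2 and BCL2A1, they passed the count limit through their 4OHT libraries alone. The direction of change of such targets was fixed by the filter. The number of targets that rose and their median therefore cannot show a shared rise. TRAF1, the target left out by the limit, went from a mean of 4.69 to 4.41 CPM. Among ligands, both tested members rose, and the interleukin IL1B went from 0.287 to 3178 CPM and IL1A from 0.281 to 51.7. Both passed the limit through their 4OHT libraries alone, so the direction of their change was likewise fixed by the filter. Ligands that stayed low in 4OHT, such as TNF with a mean of 0.0934 CPM in 4OHT siNT, were left out by it. Of 5 tested receptors, 2 rose and 3 fell, with the TWEAK receptor TNFRSF12A up by 1.20 ± 0.08 and the interleukin-1 receptor IL1R1 down, by -0.59 ± 0.09. Receptors did not move in a single direction. The 24 signalling genes split into 10 that rose, 8 that fell and 6 that did not pass, with a median of 0.04. TRAF3 and BIRC2, which together keep the non-canonical kinase NIK degraded, rose by 1.42 ± 0.07 and 1.23 ± 0.06. NIK itself, MAP3K14, fell by 1.80 ± 0.12, from 11.4 to 3.28 CPM, and the interleukin-1 receptor kinase IRAK4 fell by 1.53 ± 0.07. Of 8 other negative regulators, 4 rose and 1 fell, led by the RNase ZC3H12A (4.35 ± 0.07) and the A20 partner TNIP1 (2.32 ± 0.08), while the deubiquitinase CYLD fell by 0.26 ± 0.05. ZC3H12A reached the count limit only with its 4OHT libraries, while all 8 of these regulators were tested. BCL3, an atypical IκB, fell by 0.59 ± 0.07. REL, the remaining Rel subunit, had too few counts to be tested, like 5 of the ligands, 5 of the receptors and the target TRAF1. The ligand TNFSF12 was not analysed here.

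The second comparison asked what loss of SF3B1 did to the members, with and without RAS. It used the same siNT libraries as the first and the RBM39 comparisons, so the comparisons are not independent. Without RAS, in DMSO, 5 members rose and 4 fell, where 36.5% of all tested genes rose and 36.2% fell. The member median was 0.04, against 0.02 over all genes, so the changes went in both directions.

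RELB changed most. It was 3.52 to 5.67 CPM (median 4.17) with siSF3B1, below every siNT library, and fell by 1.29 ± 0.16 (2.44-fold lower, adjusted p = 1.3e-09). TNFAIP3 was 4.57 to 6.59 CPM (median 5.56), also below every siNT library, and fell by 0.78 ± 0.10. NFKBIE and NFKB2 fell by 0.34 ± 0.11 and 0.31 ± 0.07, again without overlap between the groups. In the other direction, RELA was 127 to 149 CPM (median 138), above every siNT library, and rose by 0.53 ± 0.06 (adjusted p = 9.1e-12). NFKBIB and IKBKG rose by 0.42 ± 0.10 and 0.26 ± 0.06 without overlap. For NFKBIZ (0.34 ± 0.11) and NFKBIA (0.13 ± 0.05, adjusted p = 0.032) the groups overlapped, and NFKB1 did not pass (-0.06, 95% interval -0.18 to 0.07).

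With RAS on, in 4OHT, 4 members rose and 4 fell after siSF3B1, where 39.4% of all tested genes rose and 37.6% fell. RELA was 168 to 183 CPM (median 175) and rose by 0.51 ± 0.06, a 1.42-fold change. NFKBIA, at 105 to 114 CPM (median 110), rose by 0.30 ± 0.05. NFKBIB and IKBKG rose by 0.31 ± 0.10 and 0.15 ± 0.06, with overlap for IKBKG alone among the 4 that rose. The members that fell were the other 3 subunits and IκBε. NFKB1 was 29.4 to 41.4 CPM (median 34.02), below every 4OHT siNT library, and fell by 0.58 ± 0.06 (adjusted p = 4.5e-11). The DMSO siNT median was 35.03. RELB, at 19.1 to 22.1 CPM, fell by 0.53 ± 0.15, NFKBIE by 0.44 ± 0.11 and NFKB2 by 0.38 ± 0.07, none overlapping siNT.

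For NFKBIZ and TNFAIP3 in 4OHT, the siRNAs against SF3B1 gave different levels. Over both siRNAs, NFKBIZ differed from siNT by -0.20 (adjusted p = 0.079) and TNFAIP3 by -0.14 (adjusted p = 0.15). With siSF3B1-13 alone they fell by 0.40 and 0.32, whereas with siSF3B1-16 alone the differences were -0.06 and -0.02. Neither pooled value passed the test.

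Whether the siSF3B1 effect differed between 4OHT and DMSO was tested as an interaction, which 37.8% of all genes passed. It passed for 4 members. The effect was lower in 4OHT for NFKB1 (difference -0.52 ± 0.09) and NFKBIZ (-0.54 ± 0.15), and higher for RELB (0.75 ± 0.22) and TNFAIP3 (0.63 ± 0.13). NFKBIZ rose in DMSO and did not pass in 4OHT, and with siSF3B1-16 alone its interaction did not pass (-0.41, adjusted p = 0.083). Against siNT2 alone 2 members passed, and the share of all genes in that fit is not given here. For RELA, which rose in both treatments, the difference was -0.02, with a 95% interval from -0.17 to 0.13.

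Of the 17 targets in DMSO, 3 rose and 4 fell with siSF3B1, where 36.5% of all tested genes rose and 36.2% fell. The prostaglandin synthase PTGS2 rose by 0.57 ± 0.17, to a mean of 4.19 CPM, and VCAM1 fell by 1.34 ± 0.12, while the chemokines CXCL3, which rose, and CXCL8, which fell, lay under 1 CPM in both groups. In 4OHT, 7 targets rose and 8 fell, where 39.4% of all tested genes rose and 37.6% fell. PTGS2 rose by 1.31 ± 0.14, from a mean of 322 to 799 CPM, and the survival gene BCL2A1 by 1.12 ± 0.13. The apoptosis inhibitor BIRC3 fell by 2.63 ± 0.16, from 30.8 to 4.98 CPM, and the cytokine IL6 by 1.85 ± 0.15, from 119 to 32.9. In the signalling list, 7 genes rose and 9 fell in DMSO, and 8 rose and 11 fell in 4OHT. The ligase scaffold CUL1, part of the complex that marks IκB for degradation, fell by 0.95 ± 0.07 and 1.28 ± 0.07 in DMSO and 4OHT. TRAF6, an adaptor of interleukin-1 receptors, rose by 0.42 ± 0.07 and 0.79 ± 0.07. Of 5 receptors, 2 rose in each treatment, with 3 falling in DMSO and 2 in 4OHT, and TNFRSF1B fell by 0.65 ± 0.10 and 1.19 ± 0.10. The tested ligands parted in both treatments, since IL1B rose and IL1A fell. In DMSO both lay under 1 CPM, with means of 0.287 and 0.752 for IL1B and 0.281 and 0.151 for IL1A (adjusted p = 0.033). In 4OHT IL1B rose by 0.33 ± 0.12 and IL1A fell by 0.78 ± 0.14. BCL3 rose by 0.68 ± 0.07 and 0.73 ± 0.07. Among the other negative regulators 3 rose and 1 fell in DMSO and 3 rose and 4 fell in 4OHT, with the linear-ubiquitin hydrolase OTULIN up by 0.87 ± 0.05 and 0.86 ± 0.05.

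The third comparison asked the same of RBM39. In DMSO, 5 members rose and 5 did not pass, where 23.9% of all tested genes rose and 22.2% fell. NFKBIB rose by 0.34 ± 0.10, NFKBIA by 0.33 ± 0.05, TNFAIP3 by 0.30 ± 0.09, NFKB1 by 0.27 ± 0.06 and NFKB2 by 0.23 ± 0.07. All 5 overlapped siNT in single libraries. NFKBIA, for example, was 28.4 to 42.3 CPM (median 33.6) against 25.7 to 30.5 in siNT. The first siRNA gave larger rises than the second for these genes, as for NFKBIA with 0.50 and 0.14. Of the members that did not pass, RELB was at 0.29 (95% interval -0.01 to 0.59), NFKBIE at 0.16, IKBKG at 0.15, RELA at 0.09 and NFKBIZ at 0.08. Without replicate 4 of siRBM39-08 in 4OHT, which enters this fit only through the shared estimate of spread, 8 members passed, all higher. The share of all genes that passed in that fit is not given here.

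In 4OHT with siRBM39, 3 members rose and 2 fell, where 32.2% of all tested genes rose and 24.3% fell. Both that fell were members with a strong RAS response. TNFAIP3 was 30.3 to 56.6 CPM (median 46.4), below every 4OHT siNT library, and fell by 0.48 ± 0.09 (adjusted p = 1.5e-05). NFKBIZ was 35.2 to 75.0 CPM (median 70.6), again without overlap, and fell by 0.47 ± 0.11 (adjusted p = 0.00019). The library that stood apart was the lowest of both, and without it the values were -0.40 for TNFAIP3 and -0.38 for NFKBIZ, both past the test. With either siRNA alone both also fell, by 0.54 and 0.43 for TNFAIP3 and by 0.42 and 0.54 for NFKBIZ.

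The 3 that rose depended more on that library. NFKBIB rose by 0.41 ± 0.10 (0.26 without it), with 17.04 to 39.9 CPM, of which 39.9 was that library and 24.97 the next. IKBKG rose by 0.21 ± 0.06 (0.10 without it, still past the test), and RELA by 0.13 ± 0.06, which did not pass without it (0.05, adjusted p = 0.31). NFKBIE was -0.21 and did not pass, but fell by 0.35 without that library (adjusted p = 0.0013). RELB in that library was 72.1 CPM against 23.2 to 28.6 in the other 7, NFKB2 was 143 against 87.2 to 95.9, and NFKB1 was 34.8 against 50.2 to 55.6.

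The RBM39 effect differed between 4OHT and DMSO for 4 members, where 14.1% of all genes passed this interaction. It was lower in 4OHT for TNFAIP3 (-0.77 ± 0.13), NFKBIZ (-0.55 ± 0.15), NFKB1 (-0.31 ± 0.09) and NFKBIA (-0.27 ± 0.07). TNFAIP3 thus rose without RAS and fell with it. Without the library that stood apart 7 members passed, all lower in 4OHT, but 1 passed against siNT1 alone and 1 against siNT2 alone. The 14.1% belongs to the fit of all libraries, and the shares of all genes in these other fits are not given here. With siRBM39-08 alone the NFKBIA difference was -0.12 and did not pass (adjusted p = 0.18).

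Of the 17 NF-κB targets, the siRBM39 effect passed the interaction for 11, all lower in 4OHT. Over all tested genes, 14.1% passed it in either direction. The 17 include the targets that passed the count limit through their 4OHT libraries alone. In DMSO, 8 of 17 rose and the other 9 did not pass, where 23.9% of all tested genes rose and 22.2% fell. PTGS2 rose by 0.92 ± 0.17 and the adhesion molecule ICAM1 by 0.84 ± 0.11. Some targets lay near the floor in both DMSO groups, as CCL20 with means of 0 and 0.00556 CPM and CXCL1 with 0.397 and 0.697. CXCL2, CXCL3, BCL2A1 and CSF2 also had means under 1 CPM in both groups, and CXCL8 had 0.943 and 1.38. For such targets the DMSO change, and with it the interaction, rests on few counts. In 4OHT, 13 of 17 fell and the other 4 did not pass, where 24.3% of all tested genes fell and 32.2% rose. The target median was -0.51, against 0.05 over all tested genes. Without the library that stood apart, 13 also fell (median -0.56). IL6 fell by 1.97 ± 0.15, from a mean of 119 to 30.3 CPM, and CCL20 by 1.41 ± 0.15, from 21.3 to 8.01. IL1B rose in DMSO (0.287 to 0.787 CPM) and fell in 4OHT by 0.79 ± 0.12, from 3178 to 1842 CPM, and IL1A fell there by 0.50 ± 0.13. Of 5 receptors 4 rose in each treatment, with TNFRSF12A up by 0.71 ± 0.07 and 0.59 ± 0.07. The signalling list had 6 genes higher and 3 lower in DMSO and 7 higher and 5 lower in 4OHT, with TRAF6 up by 0.55 ± 0.07 and 0.56 ± 0.07 and IRAK4 down, by -0.59 ± 0.07 and -0.78 ± 0.08. Of the other negative regulators, 2 rose and 1 fell in DMSO, and 1 rose and 1 fell in 4OHT, where 2 rose and 3 fell without that library. CYLD fell by 0.19 ± 0.05 and 0.38 ± 0.05, and BCL3 rose in 4OHT by 0.33 ± 0.07.

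Genes with a profile most like each member were sought over the 6 group means of log2 CPM, each centred on its own mean, by the root mean square difference. For TNFAIP3 they were ICAM1 (0.24 log2 units) and the cell cycle inhibitor CDKN2B (0.27), for NFKBIZ the claudin CLDN1 (0.17) and P2RX5 (0.19), and for NFKBIA EDEM3 (0.09) and SHC3 (0.09). For the subunits they were CSNK2A1 and RAP1B for RELA (0.02 each), KNSTRN and C8orf76 for NFKB1 (0.05 each), SLC35E4 and SPDL1 for NFKB2 (0.07 and 0.09), and H4C8 and CYGB for RELB (0.18 and 0.19). The closest to NFKBIB were POLR2H and ATP6V1F (0.04 each), to NFKBIE UBE2G2 and IGIP (0.10 each), and to IKBKG PLXNB2 and RPS27L (0.04 each). These values rank likeness over 6 points and carry no test.

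Splicing was read as the percentage of transcripts that include an exon or keep an intron (PSI). The table lists 222 events in the 10 genes, of which 41 were covered in every library and 20 also varied by at least 5 points and passed the balance filter for introns, namely 10 exons and 10 introns. They lie in RELA (9), NFKB2 (5), NFKBIA (2), IKBKG (2), NFKB1 (1) and NFKBIE (1). RELB, NFKBIB, NFKBIZ and TNFAIP3 had none, and none of the 4 covered alternative splice sites varied enough. Calls needed both a limma adjusted p below 0.05 on the logit scale and a mean difference of 5 points or more.

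RAS alone moved no tested member event past the call, where 0.913% of all 12921 tested exons and introns were called. Of the 20 member events, 5 had an unadjusted p under 0.05 in limma and 2 in the exact permutation test, which called none after adjustment. IKBKG exon 5 differed most, with a mean PSI of 85.1 in DMSO siNT and 77.0 in 4OHT siNT (adjusted p = 0.11).

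With siSF3B1 in DMSO, 6 of 20 member events were called, where 20.4% of all tested exons and introns were. The exact permutation test, adjusted over the member events, called 4. The largest change was in IKBKG exon 5, which codes for part of NEMO. Its PSI was 79.3 to 92.6 (median 84.2) in siNT and 46.2 to 57.6 (median 52.03) with siSF3B1, a fall of the mean from 85.1 to 52.1 (SE of the difference 2.29 points, n = 8 each, adjusted p = 8.3e-12). The groups did not overlap, and 163 to 303 reads lay behind each siSF3B1 value. With siSF3B1 in 4OHT, PSI was 33.4 to 51.9 (median 44.96) against 65.8 to 86.2 (median 77.2) in siNT, a fall by 32.3 ± 2.99 points. The exact permutation p was 0.000155 in both treatments, the smallest that 8 against 8 libraries can give. Both siRNAs gave the same picture, with means of 52.2 and 51.96 in DMSO and 46.97 and 42.4 in 4OHT. This exon also has an identical copy in IKBKGP1, so reads of the gene and the pseudogene cannot be told apart here. With siRBM39 its mean PSI was 78.2 in DMSO and 70.5 in 4OHT, differences of -6.87 and -6.56 points that did not pass (adjusted p = 0.059 and 0.23).

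**Figure D3:**
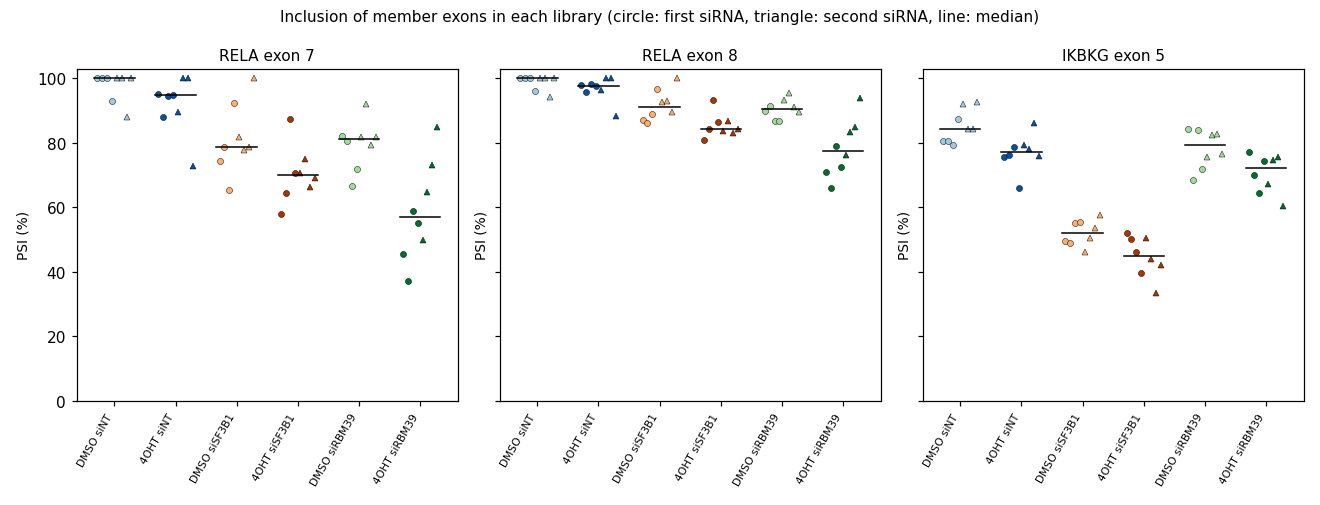
Inclusion (PSI in percent, vertical axis from 0) of RELA exons 7 and 8 and IKBKG exon 5 in each of 48 libraries, in the 6 groups along the horizontal axis. Circles are the first and triangles the second siRNA of each target, and lines the median of 8. IKBKG exon 5 is lowest in the siSF3B1 groups, with medians of 52.03 and 44.96, and RELA exon 7 is lowest in 4OHT siRBM39, with a median of 56.95.

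RELA exons 7 and 8 responded to both knockdowns. They code for part of the Rel homology region, through which the subunits bind DNA and each other. Exon 7 had a PSI of 88.0 to 100 (median 100) in DMSO siNT and 65.2 to 100 (median 78.7) with siSF3B1, a fall by 16.5 ± 4.13 points (adjusted p = 3.7e-05), and 66.7 to 92.0 (median 81.2) with siRBM39, a fall by 18.1 ± 3.12 points (adjusted p = 1.7e-05). In DMSO both knockdown groups overlapped siNT in single libraries. In 4OHT it was 72.7 to 100 (median 94.7) in siNT, 57.8 to 87.5 (median 69.98) with siSF3B1 and 36.99 to 84.9 (median 56.95) with siRBM39, so it fell by 21.6 ± 4.38 and 33.2 ± 6.29 points. The highest siRBM39 value, 84.9, was the library that stood apart, and without it the difference was -36.97 points. Both 4OHT knockdown groups overlapped siNT at its lowest library. The siRNAs against RBM39 differed, with means of 49.1 for siRBM39-06 and 68.2 for siRBM39-08 in 4OHT, and 75.3 and 83.7 in DMSO. The 4OHT mean of siRBM39-08 includes the library that stood apart. Read depth was 28 to 94 reads per library for this exon.

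Exon 8 changed alongside exon 7, and both are scored against the same flanking exons, so they are not independent. In DMSO it had a mean of 98.8 in siNT, and fell by 6.96 ± 1.87 points with siSF3B1 and by 8.19 ± 1.35 with siRBM39. With RAS on the mean was 96.8 in siNT, and it fell by 11.5 ± 1.86 points with siSF3B1 and by 18.5 ± 3.41 with siRBM39 (the difference was -20.7 without the library that stood apart, whose PSI was 93.8). The exon 8 means for siRBM39-06 and siRBM39-08 were 72.1 and 84.5 in 4OHT, and 88.7 and 92.4 in DMSO. With siRBM39 these 2 RELA exons were the called member events, 2 of 20 in each treatment, where 5.65% of all tested events were called in DMSO and 6.34% in 4OHT.

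The other calls with siSF3B1 were small. In DMSO, NFKB2 exon 11 (chr10:104158142-104158280) went from 100 in all siNT libraries to 63.4 to 100 (median 92.3), a fall by 8.90 ± 4.25 points with 1 library at 63.4 and the next at 89.7. Without that library, replicate 3 of siSF3B1-13, the difference was -4.94 points, under the limit for a call (adjusted p = 0.0014), and this and the other fits without 1 library were added after the data were seen. RELA exon 5 (chr11:65427595-65427686) fell by 5.02 ± 1.91 points and RELA intron 7 (chr11:65425971-65426188) rose from a mean of 1.27 to 6.48. Both calls lay at the 5-point limit. For exon 5 the difference fell under it without any single siNT library other than replicate 2 of siNT2, and without replicate 2, 3 or 4 of siSF3B1-13 or replicate 2 of siSF3B1-16, with a smallest size of 3.83 points. For intron 7 it did so without replicate 3 or 4 of siSF3B1-13 or replicate 4 of siSF3B1-16, with a smallest size of 3.995. The lengths of exon 11 of NFKB2 and exon 5 of RELA, 139 and 92 bases, are not divisible by 3. In 4OHT, 5 of 20 member events were called, where 23.8% of all tested events were. Beside IKBKG exon 5 and RELA exons 7 and 8, NFKB2 intron 10 (chr10:104158055-104158141) rose by 6.32 ± 1.00 points to a mean of 6.92, and NFKBIA intron 5 (chr14:35871267-35871599) by 5.02 ± 0.46 to 6.06, neither overlapping siNT. The NFKBIA intron was no longer called without replicate 1, 2 or 4 of siNT1, replicate 1 or 2 of siSF3B1-13 or replicate 2 of siSF3B1-16, with a smallest size of 4.75 points. The remaining called member events stayed called without any single library of their comparison.

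Neither knockdown had an effect on a tested member event that passed the test of a difference between treatments, which 0.348% of all events passed for siSF3B1 and 0.0232% for siRBM39. At an unadjusted p under 0.05 in limma, 3 and 1 of the 20 did. For RELA exon 7 the siRBM39 effect was lower by 15.1 ± 7.02 points in 4OHT, which did not pass (-18.9 without the library that stood apart).

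Other introns had too few reads in single libraries, or an uneven balance of reads at their ends, to be tested. Reads were therefore summed over the 8 libraries of a group, and the 8 events with at least 100 reads in every group and a range of at least 10 points are described with no test. This rule was set after the data were seen, and the 95% Wilson intervals cover counting error only.

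**Figure D4:**
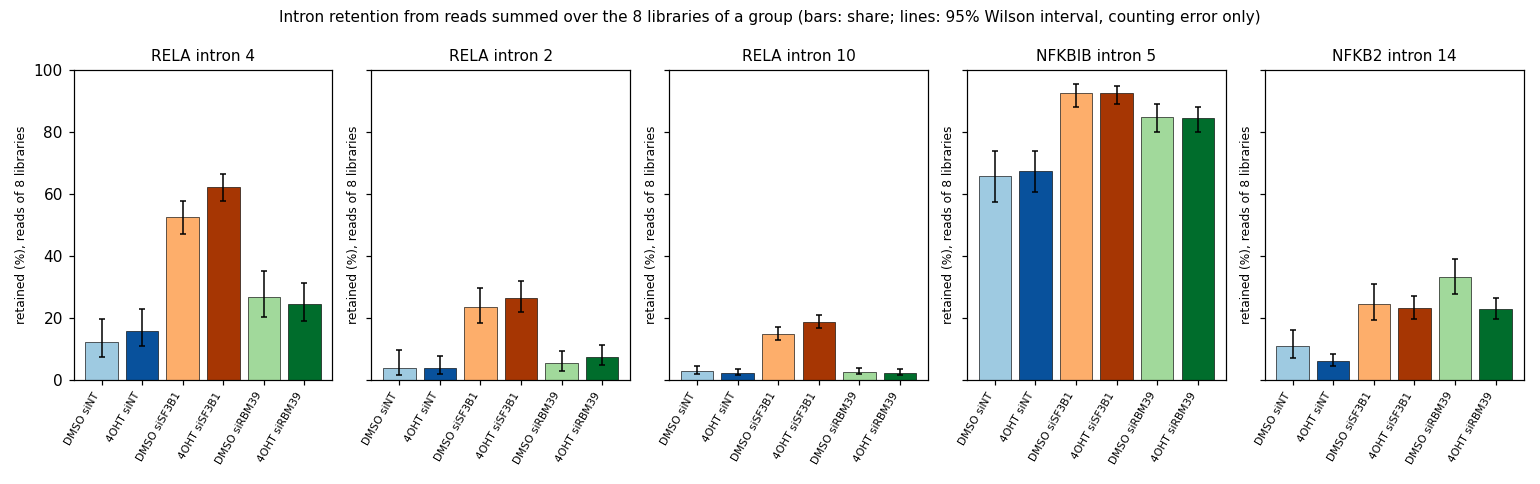
Share of reads that keep 5 member introns (percent, vertical axis from 0 to 100) with the reads of the 8 libraries of each group summed, in the 6 groups along the horizontal axis. Bars are the share and lines the 95% Wilson interval, which covers counting error only. RELA introns 4, 2 and 10 are highest in the siSF3B1 groups, and RELA intron 4 reaches 62.2% there in 4OHT.

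RELA intron 4, whose splice sites are printed above, was kept in 12.2% of reads in DMSO siNT (95% interval 7.24% to 19.7%, 107 reads) and 52.4% with siSF3B1 (46.9% to 57.7%, 321 reads). In 4OHT the shares were 15.9% (10.8% to 22.96%) and 62.2% (57.7% to 66.2%). With siRBM39 they were 26.8% in DMSO and 24.4% in 4OHT, and the intervals overlapped those of siNT in 4OHT alone. RELA thus had more counts and a higher share of reads in this intron with siSF3B1. RELA intron 2 (90 bases) went from 3.69% to 23.6% in DMSO and from 3.63% to 26.3% in 4OHT with siSF3B1, and intron 10 (687 bases, uneven ends) from 2.92% to 14.7% and from 2.30% to 18.7%. For intron 10 the siRBM39 shares of 2.50% and 2.29% lay within the siNT intervals.

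NFKBIB intron 5, which overlaps the coding sequence of another transcript of the gene, was kept in most reads throughout. Its share was 65.9% (57.4% to 73.9%) in DMSO siNT, 92.4% (87.9% to 95.4%) with siSF3B1 and 84.9% (79.9% to 88.8%) with siRBM39. In 4OHT it was 67.4%, 92.4% and 84.4%. NFKB2 intron 14 (uneven ends) was kept in 10.9% in DMSO siNT, 24.4% with siSF3B1 and 33.02% with siRBM39, and in 6.17%, 22.98% and 22.88% in 4OHT. NFKB2 introns 11 and 16 ranged from 6.04% to 22.4% and from 2.90% to 17.3% over the groups, each highest in DMSO siSF3B1. The skipping of NFKB1 exon 2, a 46-base exon, was the single exon among these events, with an inclusion of 99.1% in DMSO siNT and 82.6% (76.2% to 87.5%) with siSF3B1, and 97.5% and 87.6% in 4OHT.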

How the data were processed

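RNA-seq of 48 IMR90 ER:RAS libraries in 6 groups of 8 was analysed, with each library assigned to its group from its labels. The members and gene lists were chosen with earlier results of these data known.

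The authors ran vast-tools against VAST-DB, naming hg19, and deposited unnormalised counts for each gene. Their mappability-corrected RPKM values (cRPKM), deposited beside the counts, served here only to rank genes. A normalised CPM signal for 11428 genes was deposited by the authors after TMM scaling and served as an alternative. For splicing, the authors deposited PSI in percent together with the underlying reads and coverage scores. The submitters' processing notes name edgeR and limma. The event coordinates fall in GRCh38, so exons and introns were matched to GENCODE by structure and length and placed on GRCh37.

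Counts, scaled by TMM, were fitted by the quasi-likelihood method of edgeR 4.0.16 (R 4.3.3) with a mean for every group, over genes whose counts summed to 10000 or more, and called at an adjusted p under 0.05. Splicing was tested with limma 3.58.1 on the logit of PSI (0.01 plus 0.98 of the fraction) over exons and introns with a VLOW score or better in each library, a range of at least 5 points and, where introns were concerned, no balance p under 0.05, and called with a difference of at least 5 points. PSI was also compared with two-sided exact permutation tests. The 72 pairs of libraries of the same siRNA and treatment differed by more than sampling noise (chi-square per degree of freedom from 2.00 to 583). Each library was counted as a replicate, although this excess cannot tell separate cultures from separate preparations of the same culture. Alternatives were limma-voom (the study's method), DESeq2 1.42.0, other filters and thresholds, single siRNAs, a replicate block and each replicate left out. List counts without replicate 4 of siRBM39-08 in 4OHT, and called events with each library left out, were added after seeing the data. All 10 members are named, with at most the 2 genes per list and comparison that rose and the 2 that fell most, the 2 genes most like each member, and each event called or differing by at least 5 points. Wilson intervals used statsmodels 0.14.6, other numerical work Python 3.11.15, using pandas 2.3.3, numpy 2.4.6 and, for figures, matplotlib 3.10.9, and each test was checked on simulated data. Promoters came from RefSeq, with entries for 8 of 10 members.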

Additional observations from a re-analysis of the deposited data

Results flagged for a closer look

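Of 60 groups of 8 libraries for the level of a member, 12 had a library far from the other 7 by Dixon's ratio, and of 48 groups for a called event 11 had. Chance flags about 1 in 20 groups. Of the 12, 8 came from replicate 4 of siRBM39-08 in 4OHT. Its level was 34.8 CPM for NFKB1, 143 for NFKB2, 185 for RELA, 72.1 for RELB, 39.9 for NFKBIB, 42.3 for NFKBIE, 35.2 for NFKBIZ and 75.3 for IKBKG. In DMSO, replicate 1 of siRBM39-06 was high for RELB at 20.96 CPM and for NFKBIB at 18.5, and replicate 1 of siNT1 was low for NFKBIZ at 7.58. In 4OHT, replicate 2 of siSF3B1-13 was high for IKBKG at 52.6.

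Among events, a far library was found mostly where the others lay at or near 0 or 100. NFKB2 exon 11 had a PSI of 97.9 in 1 library of 4OHT siRBM39, 94.8 in 1 of DMSO siRBM39 and 63.4 in 1 of DMSO siSF3B1. RELA exon 5 had 96.8 in 1 library of 4OHT siRBM39 and 93.8 in 1 of DMSO siNT. Among introns, NFKB2 intron 10 had 3.99 in 1 library of DMSO siRBM39, NFKBIA intron 5 had 4.96 and RELA intron 7 had 5.56 in 1 library each of DMSO siNT. Replicate 4 of siNT2 in 4OHT was low for RELA exon 7 at 72.7 and for exon 8 at 88.3, and replicate 3 of siSF3B1-13 in 4OHT was high for exon 8 at 93.3.

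The effect of a knockdown differed between 4OHT and DMSO, by the interaction term in edgeR, for 4 members each. For siSF3B1 the log2 difference was -0.52 for NFKB1, 0.75 for RELB, -0.54 for NFKBIZ and 0.63 for TNFAIP3. For siRBM39 it was -0.31 for NFKB1, -0.27 for NFKBIA, -0.55 for NFKBIZ and -0.77 for TNFAIP3.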

How the results depend on the processing

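DESeq2, limma-voom, DESeq2's size factors, the count filters and the deposited normalised CPM left each count of called members within 1.5 times its main value. The shares of all genes or events called in the alternative fits are not given here, so the counts below show how calls moved and carry no background. A minimum 2-fold change left 6 members with RAS, 1 with siSF3B1 in DMSO and 0 in each of the other 5 comparisons. With siRBM39 in DMSO (5 called), 8 members were called with the first siRNA alone, 3 with the second, 2 against siNT2 alone and 8 without replicate 4 of siRBM39-08 in 4OHT. With siRBM39 in 4OHT (5 called), 3 were called with only the groups compared in the fit and 3 against siNT1 alone. The siSF3B1 interaction (4 called) had 2 against siNT2 alone, and the siRBM39 interaction (4 called) had 7 with the first siRNA alone, 1 against siNT1 alone, 1 against siNT2 alone and 7 without that library. Leaving out each replicate number in turn gave 2 to 7 called members with siRBM39 in DMSO, 2 to 5 for the siRBM39 interaction, 4 to 5 with siRBM39 in 4OHT, 8 to 9 and 7 to 8 with siSF3B1 in DMSO and 4OHT, 3 to 4 for the siSF3B1 interaction and 10 with RAS. For called events these ranges were 0 to 1 with RAS, 4 to 6 and 5 to 5 with siSF3B1 and 2 to 3 and 2 to 2 with siRBM39 in DMSO and 4OHT.

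Some values that did not pass the test changed sign. With siRBM39 in DMSO, NFKBIZ was -0.0635 with the first siRNA and NFKBIE -0.1798 with the second. In 4OHT, NFKB1, NFKB2 and RELB were 0.0447, -0.1032 and -0.1254 with the first siRNA and 0.0165, -0.0606 and -0.1545 without the library that stood apart. Leaving out each replicate number in turn, NFKB1 ranged from -0.0902 to 0.0068, NFKB2 from -0.0565 to 0.0801 and RELB from -0.1716 to 0.2179, with the sign changing without replicate 4. For events in siSF3B1 DMSO (6 called), 3 were called with a LOW score, 2 with a minimum difference of 10 points, 11 with no minimum and 2 with the second siRNA alone. In siSF3B1 4OHT (5 called) these were 3 with a LOW score, 3 with 10 points and 12 with no minimum. With siRBM39 in DMSO (2 called), 4 were called without the balance filter, 4 with no minimum and 1 with 10 points, and in 4OHT (2 called) 1 with a LOW score. The siSF3B1 interaction had 1 with the first siRNA alone. Only 1 member event, IKBKG exon 5, stayed within 1 to 99 in each library for the plain logit, and it was called in 1 of 1 with RAS, with siSF3B1 in DMSO and 4OHT and with siRBM39 in DMSO, and in 0 with siRBM39 in 4OHT. The causes were not tested beyond the fewer events or libraries entering these fits.

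The replicate number was not treated as a pairing, since same-numbered libraries correlated in their deviations with a median of 0.01 (264 pairs, -0.90 to 0.79). A replicate block left 10 members called with RAS, 9 and 8 with siSF3B1 and 5 and 5 with siRBM39 in DMSO and 4OHT, and 15 of 48 libraries correlated best with their own number. Called values based on under 100 reads per library, as for RELA exon 7, are limited by depth.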
